A study of Arabidopsis thaliana with 6 samples.

Results

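The genes described here act in the wall, the tip growth and the oxidase chemistry of root hairs. They were chosen by locus, as genes known from root hairs and with earlier results of these data in view, and comprise 34 of the 33602 genes in the deposited table. All 34 were found there, and RefSeq places 9, 2, 5, 9 and 9 of them on chromosomes 1 to 5 in order. The samples were whole 12-day-old Arabidopsis thaliana seedlings, all of the ecotype Columbia (Col), the usual laboratory line of this model plant. The 3 Gln samples grew with 5 mM glutamine as the sole nitrogen source, and the 3 NH4NO3 samples with 5 mM ammonium nitrate in its place. All 6 shared the same genotype and otherwise the same medium, whose basal salts held no nitrogen and to which 0.5% sucrose was added. Since the Gln plates held no NH4NO3, what Gln added and what the missing nitrate and ammonium took away cannot be told apart.

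Root hairs are single epidermal cells of the root that grow at their tip into soil or agar and enlarge the surface for uptake of water and minerals. A hair grows where the wall at the tip is loosened and new wall polymers and glycoproteins are laid down, while vesicles move along actin and a plasma membrane NADPH oxidase makes reactive oxygen species at the tip. Root hair growth is known to respond to the supply of nitrogen and phosphate.

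Most of these genes were higher in Gln seedlings. Of the 34 genes, 28 averaged 1 RPKM or more across all libraries and were tested with limma on log2(RPKM + 1), where RPKM is reads per kilobase of gene, scaled to a common library size. Of these, 26 were higher in Gln at a Benjamini-Hochberg adjusted p under 0.05 and 0 were lower. Among all 19284 genes tested, 21.4% were called higher and 19.8% lower. The 2 members not called were MRH1 and SCN1. The log2 fold change, Gln minus NH4NO3, was at least 1 in 17 of the called members, against 3.13% of all genes tested. This count was 23 with 0.1 RPKM added in place of 1, and 6 with 5 RPKM added. It was 9 with the libraries scaled to cortex and endodermis markers, a setting chosen after seeing the data and described further on. The 3.13% belongs to the main fit with 1 RPKM added, and no such share is given for the other settings. The median log2 fold change of the members tested was 1.13, and that of all genes tested was -0.02. In whole seedlings, fewer cells of a type and less RNA per cell cannot be told apart, so the values here do not say whether hairs were more numerous or richer in these transcripts.

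The filter on the mean let 2 members, XTH26 and RHS15, pass only through their level in Gln, and 24 of the other 26 were called higher. Without any filter 28 of the 34 were called higher, against 10.2% of all 33602 genes. In 27 of the 28 members tested every Gln library lay above every NH4NO3 library, against 26.5% of all genes tested. The same held for 32 of all 34 members, against 16.9% of all 33602 genes. The 2 members whose groups overlapped were PRP1 and MRH1. The plot of the level in each library shows the gap for most members.

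**Figure D1:**
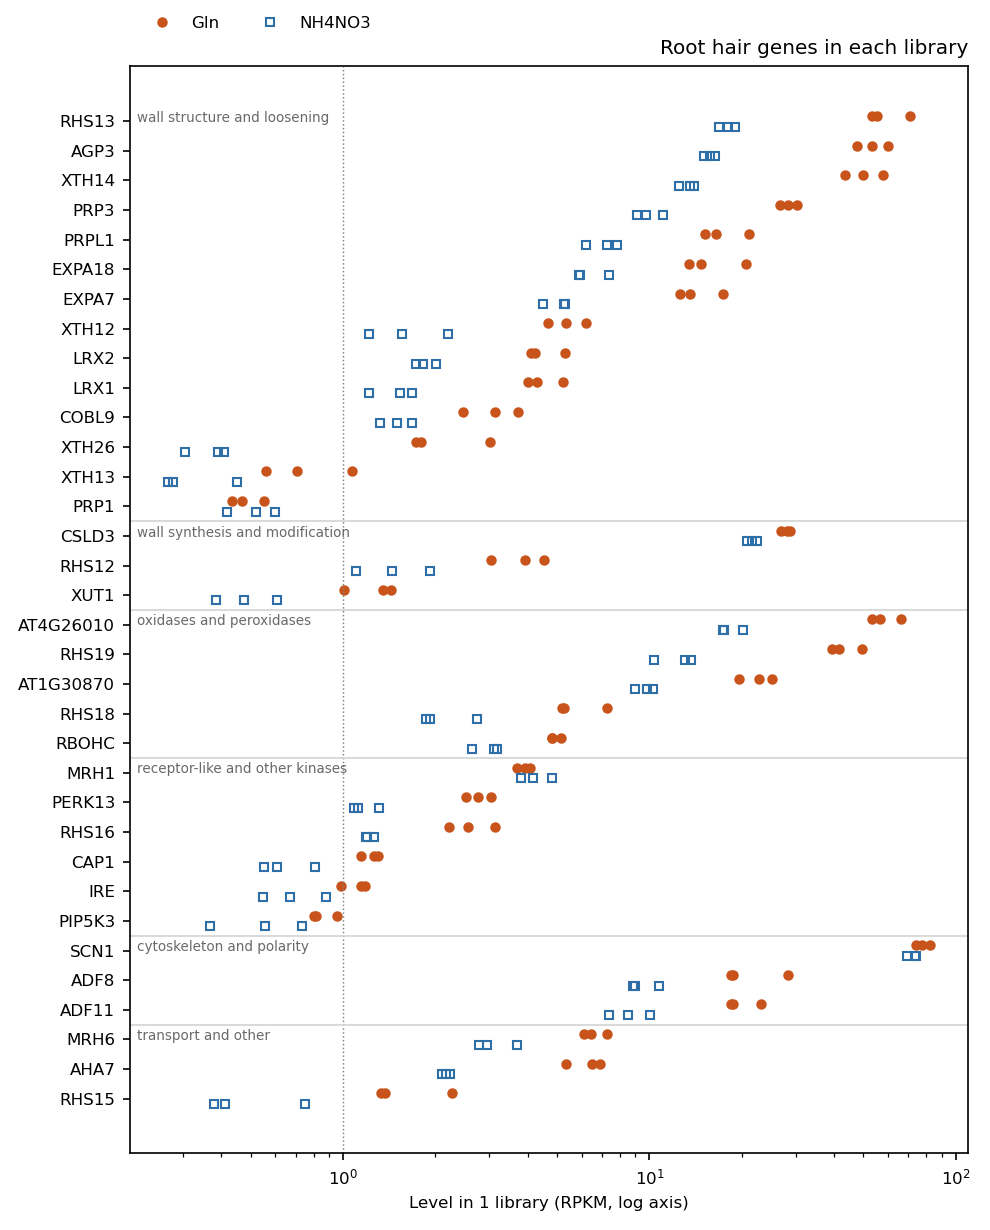
Level of each of the 34 genes in each library, in RPKM on a log axis, grouped by role and ordered by mean level; filled circles are the 3 Gln libraries, open squares the 3 NH4NO3 libraries, and the dotted line marks 1 RPKM. In 32 of the 34 genes the Gln libraries all lie to the right of the NH4NO3 libraries, with PRP1 and MRH1 as the 2 that overlap.

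Depth ranged from 30269874 to 35421789 reads in genes in the Gln libraries and from 28654558 to 31980779 in the NH4NO3 libraries, as implied by the deposited values. Pearson correlations across genes, which are not independent replicates, of log2(RPKM + 1) were 0.990 to 0.994 between libraries of 1 group and 0.959 to 0.966 between groups. An even number of implied reads was found in 44.9% of genes with 1 to 100 reads in NH4NO3 replicate 2, and in 57.8% to 60.9% in the other 5 libraries. Without NH4NO3 replicate 2, 26 members were still called higher, against 17.1% of all genes tested. The median log2 fold change of the members tested was then 1.07.

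A shared sequence feature was examined first, because it does not use the expression values. The root hair element is a promoter motif first described upstream of EXPA7 and bound by basic helix-loop-helix factors of the RSL group. Its core was searched for as TG, then any 3 or 4 bases, then GCACG or TCACG, on both strands, in the window from 250 bases before to 50 bases after each annotated gene start in RefSeq TAIR10.1. It was found in 14 of the 34 members, which is 41.2%, against 4.95% of 27443 protein-coding promoters and 5.08% of the 18672 protein-coding promoters of genes tested. The G-box CACGTG, which shares the letters CACG with the element and was searched for in the same windows, was found in 0 of 34 members and in 7.68% of the protein-coding promoters.

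This share is not independent of how some members became known. The root hair specific (RHS) genes were named in a screen that used the same element, and EXPA7 and EXPA18 were the genes in which it was studied. Members with an RHS symbol in RefSeq held the core in 6 of 9 cases, EXPA7 and EXPA18 in 2 of 2, and the other members in 6 of 23, or 26.1%. Among relatives of the members in some of their gene families the core was found in 1 of 54, and among other root hair genes in 2 of 36. Relatives of the expansins, the xyloglucan enzymes and the peroxidases were not searched. The 14 members held 20 matches in all, 9 on the strand of the gene and 11 on the other, with 1 match in 8 members and 2 in 6.

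Sequences of 8 promoters are shown to let the matched and unmatched members be compared. Each is the 250 bases before the annotated gene start, read 5′ to 3′ on the strand of the gene from TAIR10.1, with the letters of the root hair element core in capitals on whichever strand it matched. EXPA7 and COBL9 carry 2 matches each, and EXPA18 carries 1 before the gene start. RHS18 and MRH6 share 1 identical match, TGGCAAGCACG, which lies on the strand opposite to the gene in RHS18 and on the strand of the gene in MRH6. EXPA18 and RHS18 share another, TGAACGCACG. PRP3 and PRP1 are relatives, and both hold a match on the other strand. XTH14, which had the largest fold change on the log2(RPKM + 1) scale, holds none.
EXPA7, chr1:4276255-4276504, plus strand: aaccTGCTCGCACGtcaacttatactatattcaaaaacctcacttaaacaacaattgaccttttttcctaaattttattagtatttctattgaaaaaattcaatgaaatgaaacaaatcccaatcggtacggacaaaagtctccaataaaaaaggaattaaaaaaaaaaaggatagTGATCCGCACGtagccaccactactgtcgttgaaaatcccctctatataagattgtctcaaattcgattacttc
EXPA18, chr1:23331313-23331562, plus strand: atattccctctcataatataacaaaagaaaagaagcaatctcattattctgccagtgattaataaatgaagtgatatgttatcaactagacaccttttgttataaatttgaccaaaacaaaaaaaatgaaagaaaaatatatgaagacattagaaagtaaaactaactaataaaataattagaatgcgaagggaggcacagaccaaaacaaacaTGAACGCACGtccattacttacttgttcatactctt
COBL9, chr5:19974531-19974780, minus strand: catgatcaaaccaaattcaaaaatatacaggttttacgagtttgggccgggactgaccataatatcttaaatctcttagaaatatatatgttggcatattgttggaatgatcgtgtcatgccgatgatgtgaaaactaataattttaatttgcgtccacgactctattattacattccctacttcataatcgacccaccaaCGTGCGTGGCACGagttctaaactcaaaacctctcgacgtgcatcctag
RHS18, chr5:7426060-7426309, plus strand: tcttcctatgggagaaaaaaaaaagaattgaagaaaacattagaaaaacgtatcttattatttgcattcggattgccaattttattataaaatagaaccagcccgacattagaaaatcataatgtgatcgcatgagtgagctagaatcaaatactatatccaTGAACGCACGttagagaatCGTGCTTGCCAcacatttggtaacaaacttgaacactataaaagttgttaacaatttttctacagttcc
MRH6, chr2:1131870-1132119, plus strand: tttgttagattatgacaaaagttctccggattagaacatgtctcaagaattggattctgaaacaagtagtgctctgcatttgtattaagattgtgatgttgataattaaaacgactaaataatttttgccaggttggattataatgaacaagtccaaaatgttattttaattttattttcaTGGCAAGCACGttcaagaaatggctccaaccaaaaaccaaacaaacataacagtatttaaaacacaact
PRP3, chr3:23182472-23182721, plus strand: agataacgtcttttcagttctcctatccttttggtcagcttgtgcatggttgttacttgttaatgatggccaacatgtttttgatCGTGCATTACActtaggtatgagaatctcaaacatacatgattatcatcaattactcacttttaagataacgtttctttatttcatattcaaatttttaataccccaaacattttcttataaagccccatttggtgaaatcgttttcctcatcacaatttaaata
PRP1, chr1:20504651-20504900, plus strand: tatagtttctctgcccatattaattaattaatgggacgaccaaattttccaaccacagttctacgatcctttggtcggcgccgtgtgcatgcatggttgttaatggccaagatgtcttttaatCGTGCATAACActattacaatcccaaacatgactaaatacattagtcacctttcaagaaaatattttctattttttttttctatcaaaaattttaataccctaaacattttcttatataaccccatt
XTH14, chr4:13130041-13130290, plus strand: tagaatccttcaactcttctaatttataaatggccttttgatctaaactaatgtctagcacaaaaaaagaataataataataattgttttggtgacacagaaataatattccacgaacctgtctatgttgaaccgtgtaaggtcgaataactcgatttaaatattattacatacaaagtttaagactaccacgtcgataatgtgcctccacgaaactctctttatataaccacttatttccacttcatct

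Positions are those of the base of a match farthest upstream. In EXPA7 the matches began 246 and 74 bases before the gene start. EXPA18 held 1 match that began 36 bases before the start and a second, not shown, that began at base 10 of the gene, counted from 1 at its start. The 2 matches of COBL9, on opposite strands, overlapped each other and began 49 and 47 bases before the start. The matches of PRP3 and PRP1 began 165 and 127 bases before the start. The 12 members tested that held the core were all called higher, with a median ratio of the Gln mean to the NH4NO3 mean of 2.64 (range 2.08 to 3.33). Of the 16 tested without it, 14 were called higher, with a median ratio of 2.51 (range 0.917 to 5.93). The size of the change therefore overlapped widely between members with and without a match.

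**Figure D2:**
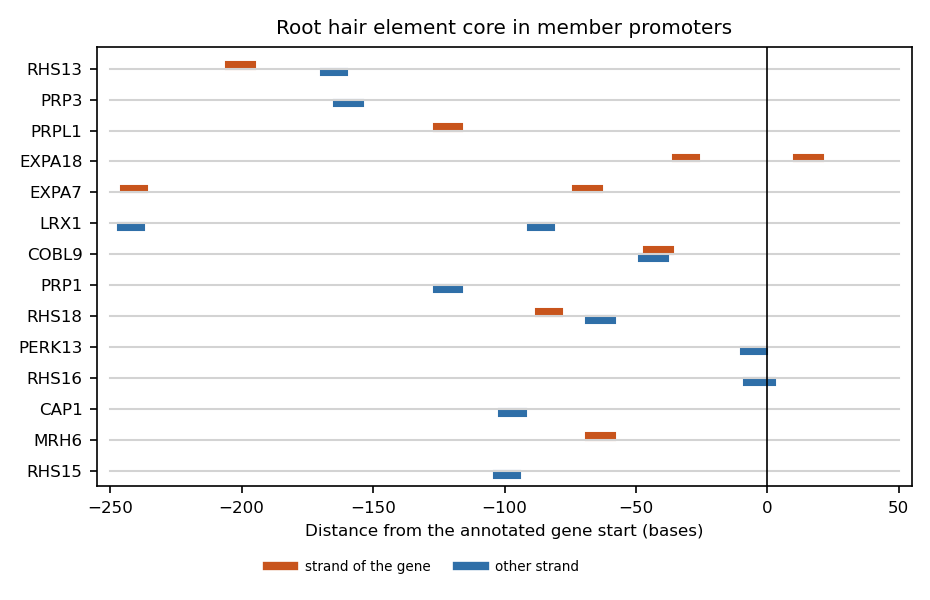
Positions of the root hair element core in the 14 members that hold it, as distance in bases from the annotated gene start; orange bars lie on the strand of the gene and blue bars on the other strand. The 20 matches lie mostly before the start, and only those of EXPA18 and RHS16 reach past it.

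Wall structure and loosening was the largest class, with 14 members. All 12 of its members that were tested rose, 10 of them with a log2 fold change of at least 1, and the class median was 1.25. XTH14 (AT4G25820), an enzyme that cuts and rejoins xyloglucan chains of the wall, had 43.5, 49.7 and 57.7 RPKM in Gln replicates 1 to 3, against 12.5, 14.02 and 13.6 RPKM in NH4NO3 replicates 1 to 3. The lowest Gln library lay well above the highest NH4NO3 library. The log2 fold change was 1.83 ± 0.10 (SE, n = 3 each; limma adjusted p = 1.7e-06), the largest among the members on the log2(RPKM + 1) scale.

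The arabinogalactan protein AGP3 (AT4G40090), a heavily glycosylated wall glycoprotein, stood at 47.7, 53.4 and 59.9 RPKM in Gln replicates 1 to 3, against 16.3, 15.7 and 15.1 RPKM in NH4NO3 replicates 1 to 3. RHS13 (AT4G02270), a root hair specific wall protein, stood at 53.1, 55.3 and 70.7 RPKM in Gln and 16.8, 18.97 and 18.1 RPKM in NH4NO3, in the same replicate order. PRP3 (AT3G62680), a proline-rich structural protein of the hair wall, stood at 28.4, 26.7 and 30.3 RPKM in Gln and 9.72, 9.095 and 11.1 RPKM in NH4NO3. For all of these genes the NH4NO3 libraries were close together and Gln replicate 3 was the highest of the 6, and the ratios of the Gln to the NH4NO3 mean were 3.42 for AGP3, 3.33 for RHS13 and 2.86 for PRP3. Their log2 fold changes were 1.71 ± 0.09 for AGP3, 1.67 ± 0.11 for RHS13 and 1.43 ± 0.09 for PRP3 (limma adjusted p = 1.2e-06, 3.8e-06 and 3.1e-06 in that order).

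The expansins loosen the wall without cutting it, and EXPA7 (AT1G12560) is needed for hairs to elongate. EXPA7 averaged 14.5 ± 2.54 RPKM in Gln and 5.01 ± 0.458 RPKM in NH4NO3 (SD, n = 3 each), and its log2 fold change was 1.36 ± 0.12 at a limma adjusted p of 2.6e-05. EXPA18 (AT1G62980) averaged 16.3 ± 3.85 RPKM in Gln and 6.39 ± 0.841 RPKM in NH4NO3, with a log2 fold change of 1.21 ± 0.15. Both carry the root hair element core shown above. PRPL1 (AT5G05500), a proline-rich-like protein that promotes hair elongation, averaged 17.6 ± 3.09 RPKM in Gln and 7.11 ± 0.823 RPKM in NH4NO3, and rose by 1.19 on the log2 scale.

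LRX1 (AT1G12040) and LRX2 (AT1G62440) are leucine-rich repeat extensins, chimeric proteins that link the wall to signals at the membrane, and loss of LRX1 deforms the hairs. LRX1 averaged 4.51 ± 0.64 RPKM in Gln and 1.48 ± 0.237 RPKM in NH4NO3, and LRX2 averaged 4.54 ± 0.645 RPKM in Gln and 1.85 ± 0.142 RPKM in NH4NO3. COBL9 (AT5G49270), a COBRA-like protein anchored at the outer membrane face, averaged 3.11 ± 0.631 RPKM in Gln and 1.496 ± 0.178 RPKM in NH4NO3. All 3 rose, with log2 fold changes of 1.15 ± 0.12, 0.95 ± 0.11 and 0.71 ± 0.13 for LRX1, LRX2 and COBL9 in that order.

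The remaining xyloglucan enzymes were expressed at lower levels. XTH12 (AT5G57530) averaged 5.41 ± 0.778 RPKM in Gln and 1.65 ± 0.506 RPKM in NH4NO3 and rose by 1.28 on the log2 scale. XTH26 (AT4G28850) averaged 2.18 ± 0.729 RPKM in Gln and 0.368 ± 0.0547 RPKM in NH4NO3, resting on 240 and 36 implied reads in all. Its ratio of means, 5.93, was the largest among the members, while its log2 fold change was 1.19 ± 0.16, because the added 1 RPKM understates changes of low genes. XTH13 (AT5G57540), which lies 1097 bases from XTH12 on chromosome 5, fell under the filter, with 0.559, 1.07 and 0.706 RPKM in Gln replicates 1 to 3 and 0.4498, 0.278 and 0.268 RPKM in NH4NO3 replicates 1 to 3. Its Gln libraries all lay above its NH4NO3 libraries, on 67 and 25 implied reads, but without the filter it was not called (log2 fold change 0.41, limma adjusted p = 0.082).

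PRP1 (AT1G54970), a relative of PRP3 that also holds the core upstream, was low in both groups. It had 0.432, 0.466 and 0.5497 RPKM in Gln replicates 1 to 3, against 0.599, 0.416 and 0.518 RPKM in NH4NO3 replicates 1 to 3, on 60 and 58 implied reads. The groups overlapped, and without the filter its log2 fold change was -0.03 (limma adjusted p = 0.75). At this depth a small change would not be detectable.

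The peroxidases and the NADPH oxidase all rose, 5 of 5, with a class median of 1.13. AT4G26010, annotated by RefSeq as a peroxidase superfamily protein, had 53.2, 56.8 and 66.2 RPKM in Gln replicates 1 to 3, against 17.5, 17.4 and 20.1 RPKM in NH4NO3 replicates 1 to 3. RHS19 (AT5G67400), which RefSeq names only as root hair specific and which is known as a peroxidase of the wall, had 41.7, 39.5 and 49.6 RPKM in Gln and 10.3, 13.6 and 13.1 RPKM in NH4NO3, in the same replicate order. In both genes every Gln library was more than 2-fold above every NH4NO3 library. Log2 fold changes were 1.62 ± 0.09 for AT4G26010 and 1.74 ± 0.11 for RHS19 (limma adjusted p = 2.3e-06 and 5.0e-06). AT4G26010 overlaps AT4G26020 on the other strand by 1304 bases. With no record of strand in these libraries, strand cannot assign a read over the shared bases to either gene. The deposited values nevertheless listed the genes far apart. AT4G26020 averaged 0.110 RPKM in Gln and 0.140 RPKM in NH4NO3, against 58.7 and 18.3 RPKM for AT4G26010. How reads over the overlap were assigned was not tested.

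AT1G30870, a further peroxidase superfamily protein, averaged 22.5 ± 2.71 RPKM in Gln and 9.67 ± 0.6603 RPKM in NH4NO3, and rose by 1.13 on the log2 scale. It shares 82 bases on the other strand with AT1G30880, which stood at 116 RPKM in Gln and 107 RPKM in NH4NO3. AT1G30870 rested on 2800 implied reads in Gln and 1105 in NH4NO3. Whether reads of the highly expressed neighbour entered them was not tested. RHS18 (AT5G22410), also a peroxidase, averaged 5.91 ± 1.17 RPKM in Gln and 2.17 ± 0.485 RPKM in NH4NO3, and rose by 1.12 on the log2 scale. RBOHC (AT5G51060), the NADPH oxidase that makes superoxide at the hair tip and without which hairs stay short, had 5.16, 4.82 and 4.798 RPKM in Gln replicates 1 to 3, against 3.12, 2.64 and 3.18 RPKM in NH4NO3 replicates 1 to 3. Its groups did not overlap, but its log2 fold change of 0.58 ± 0.10 was the smallest of the class (limma adjusted p = 0.0013). Scaled to cortex and endodermis markers, RBOHC was at 0.36 and not called (limma adjusted p = 0.11).

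Both tested members of the class that builds or modifies wall polymers rose. CSLD3 (AT3G03050), a cellulose synthase-like protein that makes the wall of the growing tip, had 28.2, 28.9 and 26.9 RPKM in Gln replicates 1 to 3, against 22.5, 21.6 and 20.8 RPKM in NH4NO3 replicates 1 to 3. It was among the more highly expressed members, and its groups did not overlap, but its change was the smallest of any called member (log2 fold change 0.36 ± 0.07, limma adjusted p = 0.0023). Scaled to cortex and endodermis markers, CSLD3 was at 0.09 and not called (limma adjusted p = 0.73). RHS12 (AT3G10710), a pectin-modifying enzyme by its family, had 3.92, 3.03 and 4.53 RPKM in Gln and 1.93, 1.44 and 1.096 RPKM in NH4NO3, in the same replicate order, at 0.96 ± 0.16 on the log2 scale (limma adjusted p = 0.0011). XUT1 (AT1G63450), which adds galacturonic acid to the xyloglucan of root hairs, fell under the filter with 1.01, 1.35 and 1.43 RPKM in Gln and 0.384, 0.607 and 0.473 RPKM in NH4NO3. The XUT1 groups did not overlap, on 405 and 141 implied reads, and without the filter its log2 fold change was 0.60 (limma adjusted p = 0.016).

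Receptor-like and other kinases had lower levels, and 3 of the 6 were tested. PERK13 (AT1G70460), a receptor kinase with a proline-rich outer part, had 3.05, 2.52 and 2.76 RPKM in Gln replicates 1 to 3, against 1.09, 1.31 and 1.11 RPKM in NH4NO3 replicates 1 to 3. Its Gln libraries were all above its NH4NO3 libraries, and the difference was 0.80 ± 0.11 on the log2 scale (limma adjusted p = 4.6e-04). RHS16 (AT4G29180), a kinase of the root hair specific group, averaged 2.63 ± 0.456 RPKM in Gln and 1.21 ± 0.04197 RPKM in NH4NO3 and rose by 0.71 on the log2 scale. MRH1 (AT4G18640), a leucine-rich repeat receptor kinase whose loss gives short hairs, had 4.06, 3.704 and 3.93 RPKM in Gln and 4.79, 4.16 and 3.81 RPKM in NH4NO3. The MRH1 groups overlapped, and its log2 fold change was -0.10 ± 0.10 with a 95% interval from -0.32 to 0.13 (limma adjusted p = 0.47). An increase as large as the median of the members lies outside that interval.

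The other 3 kinases fell under the filter, and their Gln libraries all lay above their NH4NO3 libraries. CAP1 (AT5G61350), a malectin-type receptor kinase needed for hair growth, had 1.26, 1.3 and 1.15 RPKM in Gln and 0.809, 0.608 and 0.55 RPKM in NH4NO3. IRE (AT5G62310), a kinase named for incomplete root hair elongation in its mutant, had 1.18, 0.986 and 1.15 RPKM in Gln and 0.878, 0.548 and 0.668 RPKM in NH4NO3. PIP5K3 (AT2G26420), which makes the membrane lipid that marks the growing tip, had 0.817, 0.805 and 0.952 RPKM in Gln and 0.734, 0.367 and 0.557 RPKM in NH4NO3. Without the filter CAP1 was called (log2 fold change 0.44, limma adjusted p = 0.016), and IRE (0.31, limma adjusted p = 0.065) and PIP5K3 (0.27, limma adjusted p = 0.13) were not. The implied reads behind them were 314 and 153 for CAP1, 393 and 229 for IRE, and 182 and 107 for PIP5K3, in Gln and NH4NO3.

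Both actin depolymerizing factors rose. ADF8 (AT4G00680), which severs actin filaments and turns them over, had 18.5, 18.7 and 28.4 RPKM in Gln replicates 1 to 3, against 8.84, 8.97 and 10.8 RPKM in NH4NO3 replicates 1 to 3, and Gln replicate 3 was the highest of the 6 by a wide margin. Its log2 fold change was 1.10 ± 0.15 (limma adjusted p = 4.1e-04). ADF11 (AT1G01750) averaged 20.1 ± 2.66 RPKM in Gln and 8.64 ± 1.35 RPKM in NH4NO3, and rose by 1.13 on the log2 scale. ADF11 overlaps AT1G04053 on the other strand by 838 bases, a gene not analysed here. SCN1 (AT3G07880), which keeps each epidermal cell to 1 hair and is expressed beyond root hairs, had 74.4, 82.4 and 77.7 RPKM in Gln and 69.4, 74.2 and 73.7 RPKM in NH4NO3. Its groups were apart by less than 1 RPKM, and it was not called (log2 fold change 0.11 ± 0.07, 95% interval from -0.04 to 0.25, limma adjusted p = 0.21).

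All 3 members of the class of transport and other functions rose. AHA7 (AT3G60330), a plasma membrane proton pump, had 6.48, 5.36 and 6.904 RPKM in Gln replicates 1 to 3, against 2.17, 2.23 and 2.096 RPKM in NH4NO3 replicates 1 to 3. MRH6 (AT2G03720), a protein of the adenine nucleotide alpha hydrolase superfamily found through hair mutants, had 6.097, 6.47 and 7.25 RPKM in Gln and 2.78, 2.94 and 3.68 RPKM in NH4NO3, in the same replicate order. Neither gene's groups overlapped, and the log2 fold changes were 1.19 ± 0.11 for AHA7 and 0.88 ± 0.11 for MRH6 (limma adjusted p = 3.0e-05 and 2.3e-04). RHS15 (AT4G25220), a glycerol-3-phosphate permease, averaged 1.65 ± 0.527 RPKM in Gln and 0.514 ± 0.207 RPKM in NH4NO3, with a log2 fold change of 0.80 ± 0.17. The plot of fold changes sets the 28 tested members side by side.

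**Figure D3:**
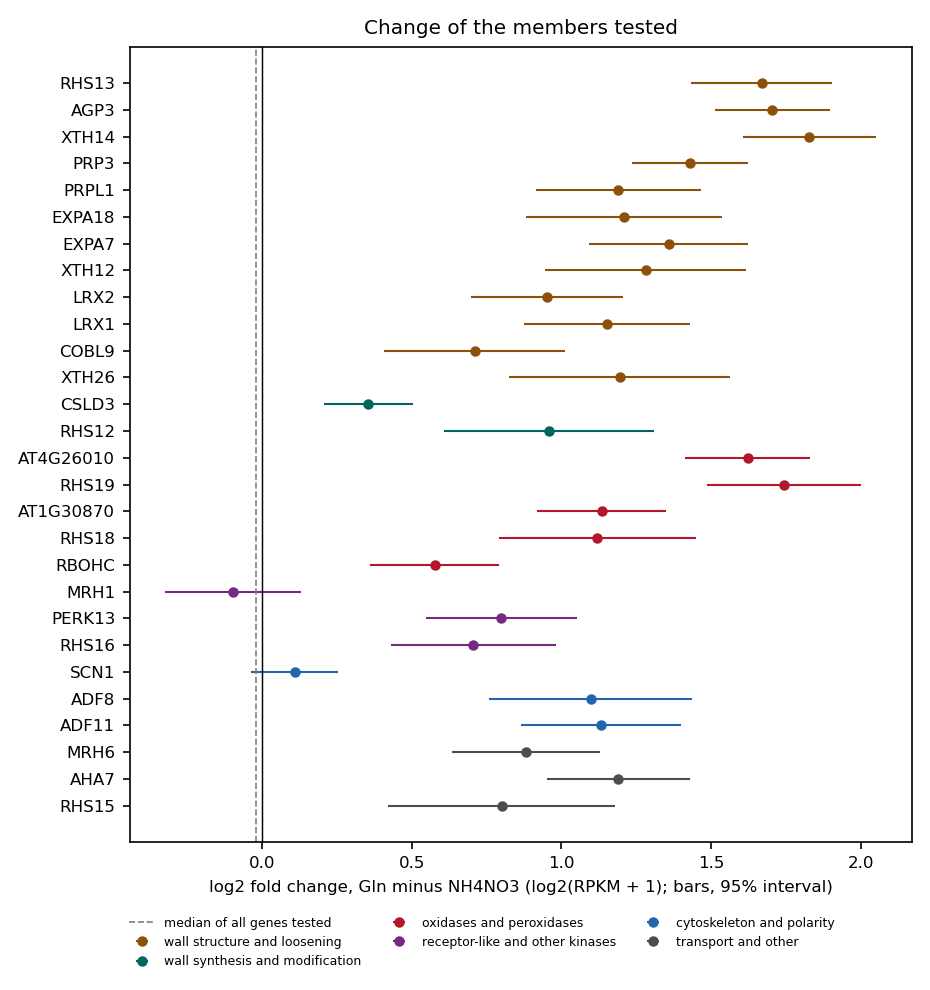
Log2 fold change, Gln minus NH4NO3 on log2(RPKM + 1), of the 28 members tested, with the limma 95% interval as a bar and colour by role; the dashed line is the median of all genes tested. The intervals of MRH1 and SCN1 include 0, and the other 26 lie to the right of it.

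Within Gln, 1 library set the upper end for most members. Gln replicate 3 was the highest of its group in 25 of the 34 members, and it lay above the group mean in 23 of the 28 tested. The median deviation of the tested members from their Gln mean was -0.07, -0.12 and 0.19 on the log2 scale in Gln replicates 1 to 3, and between -0.03 and 0.02 in the NH4NO3 libraries. Over all genes tested the median deviation was near 0 in each library. Markers of cortex and endodermis deviated the same way in Gln replicate 3, by a median of 0.31, and those of non-hair epidermis by 0.15. Stele markers deviated by 0.02 and shoot markers by 0.04 in that library. Without Gln replicate 3, 26 members were still called higher, against 19.2% of all genes tested, and the median log2 fold change was 1.02.

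**Figure D4:**
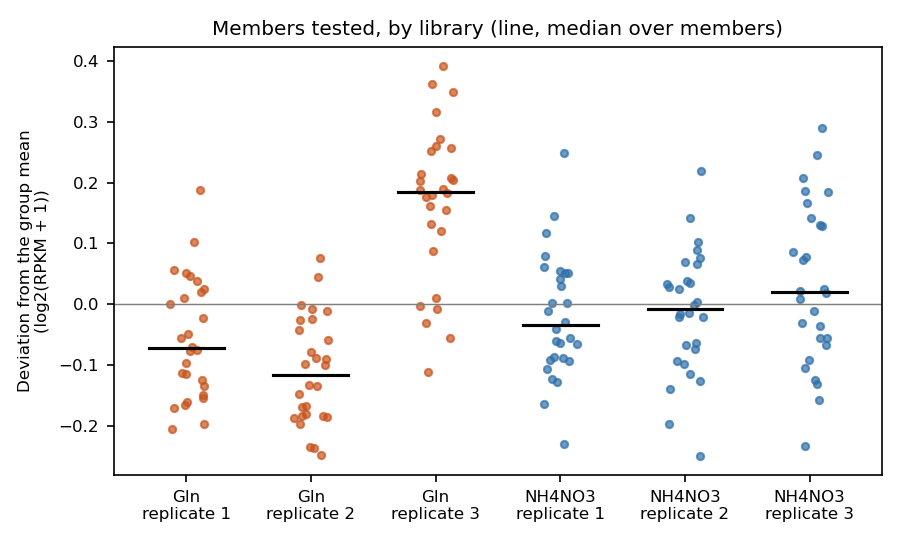
Deviation of each of the 28 tested members from the mean of its group, in log2(RPKM + 1), by library, with the median over members as a black line. The median is 0.19 in Gln replicate 3 and lies between -0.12 and 0.02 in the other 5 libraries.

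Markers of other cell types were read beside these changes, and beside the shares over all genes tested, 21.4% higher and 19.8% lower. Summed over the 34 members, levels were 537 to 646 RPKM in Gln libraries and 250.2 to 265 RPKM in NH4NO3 libraries. Of 10 markers of cortex and endodermis, 3 were higher in Gln, 1 was lower and 6 were not called, and their summed level was 112 to 159.8 RPKM in Gln and 101 to 115 RPKM in NH4NO3. Of 4 markers of non-hair epidermis, 0 were higher and 2 lower, namely GL2 (log2 fold change -0.78) and MYB23 (-0.35), and their sum was 6.79 to 8.45 RPKM in Gln and 9.56 to 10.9 RPKM in NH4NO3. GL2 is the factor that keeps root epidermal cells hairless and MYB23 acts with it. GL2 and TTG2, another of the 4, are also active in the hairs of the shoot (trichomes). The levels of these markers in whole seedlings, MYB23 included, are therefore not read as those of the root alone. Of 8 stele markers, 1 was higher and 4 were lower. Their sums were 96.2 to 126 RPKM in Gln and 128 to 148 RPKM in NH4NO3, and some, such as PHO1, are not limited to a single cell type. All 6 markers of root cap and meristem were under the filter, with sums of 3.16 to 4.75 RPKM in Gln and 2.75 to 3.598 RPKM in NH4NO3. None of these root lists has a defining marker at 0 reads.

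Shoot markers went the other way: 0 of the 10 tested were higher and 9 were lower, with a median of -0.61, against 19.8% lower among all genes tested. Their summed level, dominated by RBCS1A, was 8408 to 9565 RPKM in Gln and 10145 to 11476 RPKM in NH4NO3. The ratio of root to shoot tissue in a seedling was not measured, and its part in the members' changes was not tested. When all libraries were scaled to the summed cortex and endodermis markers, an alternative chosen after seeing the data, 24 members were called higher and 0 lower, with a median log2 fold change of 0.89. Under this scaling the median of all genes tested was -0.26, and of all genes 1371 were called higher and 4907 lower, against 4126 and 3816 as deposited. CSLD3 and RBOHC were the 2 members that lost their call, and SCN1 was at -0.16, also not called. The scaling lowered the fold changes and also widened their errors. The SE went from 0.07 to 0.19 for CSLD3 and from 0.10 to 0.18 for RBOHC.

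Other genes of root hair formation were called in both directions, and most were not called. Of 20 regulators of hair fate and growth, 17 were tested, 5 were higher, 2 were lower and 10 were not called, with a median log2 fold change of 0.06. The shares over all genes tested were 21.4% higher and 19.8% lower. RSL2, a basic helix-loop-helix factor of hair growth, averaged 11.1 ± 2.06 RPKM in Gln and 4.45 ± 0.722 RPKM in NH4NO3 (log2 fold change 1.14 ± 0.14, limma adjusted p = 1.6e-04). LRL3, a related factor, averaged 14.7 ± 1.24 RPKM in Gln and 6.73 ± 1.54 RPKM in NH4NO3 (1.04 ± 0.14, limma adjusted p = 3.6e-04). GTL1, a repressor that ends hair growth, averaged 11.8 ± 0.699 RPKM in Gln and 23.1 ± 2.88 RPKM in NH4NO3 (-0.91 ± 0.09, limma adjusted p = 6.8e-05). RHD6, RSL4 and LRL1 were the other 3 that were higher, although the 2 groups overlapped for LRL1, and AT1G76880 was the other one that was lower.

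Of 16 further genes linked to root hair formation, 15 were tested, 6 were higher, 1 was lower and 8 were not called, with a median of 0.10. Over all genes tested the shares were 21.4% higher and 19.8% lower. COW1, a lipid transfer protein that guides tip growth, had the largest change of that list (log2 fold change 0.89 ± 0.12, limma adjusted p = 4.2e-04), followed by AT2G41970 at 0.61 ± 0.11 and BST1, a phosphatase, at 0.57 ± 0.11. These lists hold genes also used outside hairs, such as ACT2, which was at 390.3 RPKM in Gln and 395 RPKM in NH4NO3.

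Relatives of the members in 7 of their gene families were also called in both directions. Relatives of the expansins, the xyloglucan enzymes and the peroxidases were not examined. The families left out include those of XTH14 and RHS19. Of 54 relatives, 36 were tested, 11 were higher, 9 were lower and 16 were not called, with a median log2 fold change of 0.01. Among all genes tested, 21.4% were called higher and 19.8% lower, so these counts are not read as particular to the relatives. A log2 fold change of 1 or more was reached by 0 of them, and AT2G15880 was lower by more than 2-fold, at -1.13. Whether members and relatives differ was not tested, since the members were chosen with results known. In the NADPH oxidase family 5 of 6 tested relatives of RBOHC were higher, namely RBOHA, RBOHB, RBOHF, AT1G19230 and AT4G25090, with log2 fold changes from 0.41 to 0.64. RBOHD, active in immune responses, was not called (-0.11 ± 0.09).

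Beside CSLD3, its relative CSLD2 was higher (0.47 ± 0.07) and CSLD5 lower (-0.59 ± 0.10). Beside PRP3, both PRP2 and PRP4 were lower (-0.69 ± 0.16 and -0.59 ± 0.14). Among the proton pumps AHA3 and AHA5 were lower (-0.35 ± 0.08 and -0.38 ± 0.10), while the highly expressed AHA2 stood at 193 ± 18.7 RPKM in Gln and 215 ± 6.48 RPKM in NH4NO3 and was not called. Among the actin depolymerizing factors ADF4 and ADF6 were higher and ADF9 lower (0.18 ± 0.06, 0.42 ± 0.07 and -0.88 ± 0.12). Among the COBRA-like proteins COBL2 and COBL5 were higher and COBL1 lower (0.39 ± 0.08, 0.92 ± 0.09 and -0.50 ± 0.14). Among the leucine-rich repeat extensins AT3G22800 was higher, and AT4G18670 and AT2G15880 were lower (0.39 ± 0.10, -0.58 ± 0.10 and -1.13 ± 0.13). The plot by gene list shows these relatives beside the members.

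**Figure D5:**
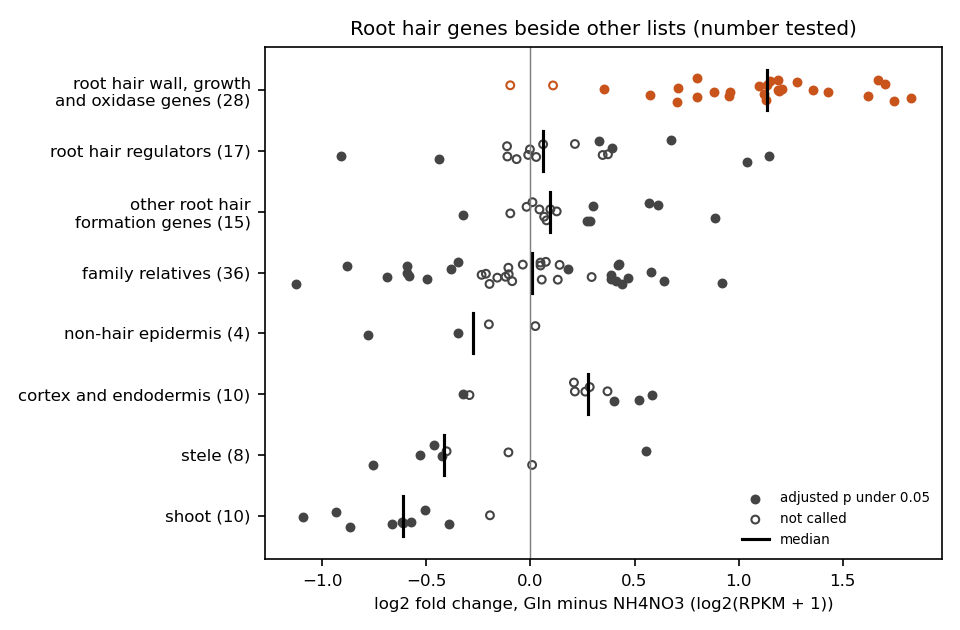
Log2 fold change, Gln minus NH4NO3, of tested genes in each list, with the number tested in brackets; filled points passed the test, open points did not, and bars are medians. The members have a median of 1.13, the regulators 0.06, the other root hair formation genes 0.10 and the family relatives 0.01. The relatives include no expansins, xyloglucan enzymes or peroxidases.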

How the data were processed

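Libraries were prepared from total RNA of whole seedlings with Illumina's TruSeq kit for RNA, per the labels' protocols. The kit keeps no record of strand. The deposited table gives RPKM with TMM scaling (trimmed mean of M values) and a gene length per the file headers, and a fraction, the maximum multi-read ratio, that the file headers do not define and that was 0 for all 34 genes. The submitters' processing notes name TAIR10 and SAMtools; the aligner, counter and annotation release: not given in the sources used here. Value times gene length, divided by a constant of each library, gave reads plus 0.5, and these implied reads came out whole (tolerance 0.05) in 98.1% to 98.8% of cases at 20 reads or fewer. TMM factors implied in this way were 0.986 to 1.03. The values being read as RPKM, the main test was not a count test, and voom weights on implied reads served as an alternative.

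The 19284 genes that averaged 1 RPKM or more entered a fit with limma (version 3.58.1, R 4.3.3) on log2(RPKM + 1), with a trend of the variance on the mean; p-values were 2-sided and adjusted by Benjamini-Hochberg over all 19284. The threshold was an adjusted p of 0.05, and errors are SE for fold changes and SD for levels. The pipeline was tested on simulated data. Replicates carry numbers only, so p-values measure the spread between samples, which may be technical. The members, lists and roles were chosen with earlier results of these data known. Values in every library are given for the 2 most highly expressed members of each role, the 6 largest and 4 smallest changes, and members not called or under the filter. Symbols, positions and promoter sequences come from RefSeq TAIR10.1, which names 32835 of the 33602 genes. Deposited lengths were 49.9% to 105% of the exon length there, so levels per length depend on the annotation. Alternatives changed the pseudocount, filter, scaling, weights, libraries and replicate block.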

Additional observations from a re-analysis of the deposited data

How the results depend on the processing

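The same 26 members were called higher, and 0 lower, under each of these settings: pseudocounts of 0.1 and 5 RPKM, no filter (which added XUT1 and CAP1), quantile normalization, array weights, voom weights on implied reads, the replicate block and each library left out. Of all genes tested, 10.2% were called higher with no filter, and 17.1% to 23.0% under the other settings just named. The filter at a mean of 5 RPKM tested 14 members and called 13 higher, against 23.9% of all 13981 genes tested there. Leaving out 1 library at a time gave 26 members higher each time and a median log2 fold change from 1.02 to 1.21. The number of members with a log2 fold change of at least 1 was 17 in the main fit. It was 23 with a pseudocount of 0.1 RPKM, 24 with voom, 6 with a pseudocount of 5 RPKM and 9 when scaled to the cortex and endodermis markers. With 1 library left out it was 16 to 18. For all genes the share, 3.13%, is given for the main fit only. The median was 0.62 with a pseudocount of 5 RPKM, which shrinks the changes of low genes by construction, and 1.32 with 0.1 RPKM. With voom it was 1.35, a setting that changed the scale as well as the weights, since no 1 RPKM was added there. Scaled to the cortex and endodermis markers, the median was 0.89. Under the scaling to these markers, added after seeing the data, CSLD3 (0.09 ± 0.19, limma adjusted p = 0.73) and RBOHC (0.36 ± 0.18, limma adjusted p = 0.11) were not called. SCN1 turned to -0.16, and the cause was not tested. With the replicate number as a block, 26 members were higher with a median of 1.13, and 3891 genes were higher and 3383 lower, against 4126 and 3816 without it. Same-numbered samples correlated at -0.07, -0.10 and -0.01 in their deviations from the group means, so the numbers were not read as pairs. Depth limits the 6 members under the filter, of which PRP1 and XTH13 rest on the fewest reads.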

Other observations

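Pollen tubes also grow at their tip, and several families above have members known from pollen. Of 16 such genes, 7 had no implied read in any library (COBL11, ADF7, ADF10, RBOHJ, CSLD4, AHA6 and ANX2), and 10 had under 10 implied reads over the 6 libraries. The summed level of the list was 20.7 to 27.6 RPKM in Gln and 45.6 to 56.1 RPKM in NH4NO3. Most of this sum came from AT2G15880, the leucine-rich repeat extensin named above, with 21.2 ± 3.92 RPKM in Gln and 47.1 ± 5.48 RPKM in NH4NO3 (SD, n = 3 each), or -1.13 ± 0.13 on the log2 scale (limma adjusted p = 1.5e-04). Its level was thus lower in Gln while that of LRX1 and LRX2 was higher.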
